A study of Mus musculus with 9 samples.

Results

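The transcription factor gene Sox2 was examined together with the gene desert around it, in ATAC-seq peak lists from the embryonic mouse cochlear duct. A peak was taken to belong to Sox2 where its summit lay nearer, within 1 Mb, to a Sox2 transcription start site (TSS) than to that of any other protein-coding gene. By this rule 121 of 286921 peaks belonged to Sox2. Merged across lists where they lay within 100 bp of each other, they formed 37 of 69415 regions, which are named here by the distance of their centre from the TSS. Sox2 itself lies at chr3:34548927-34551383 on the + strand of mm9, and the next protein-coding start sites were those of Dnajc19, 568.7 kb upstream, and Atp11b, 1104.1 kb downstream.

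Cells were sorted from cochlear ducts of the strain B6;129S-Sox2tm2Hoch/J, in which EGFP is knocked into the Sox2 coding region, and embryos were heterozygous. Both sorted populations carried this allele, no treatment is named in the labels, and each replicate pooled ducts, those of the Sox2-EGFP+ cells from a single litter. Sox2-EGFP+ cells were those of highest EGFP, gated to enrich for prosensory progenitors, and Sox2-EGFP− cells were duct cells without EGFP. The former were sampled in 2 replicates per stage (E12, E14.5, E16), the latter in 2 at E16 and 1 at E14.5, and not at E12. Because the sort read the Sox2 locus itself, the cell types were chosen by expression from this locus, and a reporter allele lacks the intact coding sequence. Titles and source names gave the groups, which a separate cell type tag contradicted in 3 of the 4 E16 samples.

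Sox2 is an HMG-box transcription factor that binds short CATTGT-like sequences. In the inner ear it is required for the prosensory domain, the strip of epithelium from which hair cells and supporting cells arise, and its expression is controlled by enhancers near the gene and in the surrounding desert. Sox2ot, a noncoding transcript read in the same direction, starts far upstream, contains Sox2 in an intron and ends beyond it. In ATAC-seq a transposase inserts adapters into DNA free of nucleosomes, so that a peak marks open chromatin, which is a property shared by enhancers, promoters and insulators and does not by itself show activity.

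The peaks that recurred across the lists are shown by their mm9 sequence, 300 bases about the summit of the best-ranked peak of each region. Capitals mark matches on either strand to the letters CATTGT, recognised by Sox factors, and to GGAATG, recognised by Tead factors. Capitals also mark AGATAA, recognised by Gata factors, and AACNNGTT, recognised by Grainyhead-like (Grhl) factors. The region at −117.4 kb is shown because it had a peak in every Sox2-EGFP+ list and in no Sox2-EGFP− list.
−117.4 kb, chr3:34431399-34431698, + strand: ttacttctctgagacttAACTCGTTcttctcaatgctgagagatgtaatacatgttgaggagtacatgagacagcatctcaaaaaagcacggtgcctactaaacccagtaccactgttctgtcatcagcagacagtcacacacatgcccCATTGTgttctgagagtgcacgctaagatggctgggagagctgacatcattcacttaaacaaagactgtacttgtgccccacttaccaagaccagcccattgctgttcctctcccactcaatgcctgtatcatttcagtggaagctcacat
In that sequence CATTGT occupied bases 150 to 155, at chr3:34431548-34431553. The window was centred on the summit of E12 replicate 1, which is base 151 by construction. Over the 6 lists the summits lay 1.5 to 81.5 bp from the centre of these letters. The AACNNGTT match, at bases 18 to 25, was farther, with its centre 129.5 to 212.5 bp from the summits. The next 3 regions are shown because each had a peak in 5 Sox2-EGFP+ lists and in no Sox2-EGFP− list.
+389.9 kb, chr3:34938892-34939191, + strand: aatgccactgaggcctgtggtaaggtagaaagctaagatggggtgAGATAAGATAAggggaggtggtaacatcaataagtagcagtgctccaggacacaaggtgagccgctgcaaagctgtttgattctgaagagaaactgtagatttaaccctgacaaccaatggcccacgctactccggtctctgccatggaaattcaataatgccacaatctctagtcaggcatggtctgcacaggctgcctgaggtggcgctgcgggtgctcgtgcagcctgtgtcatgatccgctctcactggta
+440.8 kb, chr3:34989468-34989767, + strand: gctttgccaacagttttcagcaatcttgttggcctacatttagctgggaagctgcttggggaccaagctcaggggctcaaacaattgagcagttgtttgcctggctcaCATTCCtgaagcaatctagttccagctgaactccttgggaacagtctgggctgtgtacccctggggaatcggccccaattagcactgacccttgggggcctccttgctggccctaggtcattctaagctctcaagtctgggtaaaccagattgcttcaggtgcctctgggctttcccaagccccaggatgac
+463.8 kb, chr3:35012346-35012645, + strand: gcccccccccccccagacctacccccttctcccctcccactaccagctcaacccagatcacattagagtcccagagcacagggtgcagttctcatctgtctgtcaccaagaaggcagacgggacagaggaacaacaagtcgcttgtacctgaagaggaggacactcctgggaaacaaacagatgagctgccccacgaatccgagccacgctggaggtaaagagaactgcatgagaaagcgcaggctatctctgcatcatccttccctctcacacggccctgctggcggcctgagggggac
The first of these held 2 overlapping AGATAA matches, the second a GGAATG match read as CATTCC, and the third none of the 4 sequences. The region at +145.9 kb is shown because it had a peak in every Sox2-EGFP− list, and the promoter region because it lies over the TSS. The best-ranked promoter peak, that of E14.5 Sox2-EGFP+ replicate 2, placed the window on the upstream portion. Peaks lay over this portion in the later Sox2-EGFP+ lists alone.
+145.9 kb, chr3:34694521-34694820, + strand: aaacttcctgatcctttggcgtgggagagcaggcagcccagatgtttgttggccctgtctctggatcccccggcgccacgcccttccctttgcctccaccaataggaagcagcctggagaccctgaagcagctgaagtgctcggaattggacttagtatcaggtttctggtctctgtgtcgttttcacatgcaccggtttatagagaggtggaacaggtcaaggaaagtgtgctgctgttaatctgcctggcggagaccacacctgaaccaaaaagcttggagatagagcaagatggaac
promoter region, upstream portion, chr3:34547662-34547961, + strand: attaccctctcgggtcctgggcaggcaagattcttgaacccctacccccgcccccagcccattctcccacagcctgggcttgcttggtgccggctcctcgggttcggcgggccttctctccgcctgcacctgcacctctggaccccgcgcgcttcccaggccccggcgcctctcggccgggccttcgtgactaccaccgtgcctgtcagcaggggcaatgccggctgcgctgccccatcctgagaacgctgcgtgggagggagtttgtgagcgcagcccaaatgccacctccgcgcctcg
Neither of these windows held a match to the 4 sequences. A match describes the letters in the window and not a bound site.

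Of the 37 regions, 10 lay upstream of the TSS, 1 over it and 26 downstream, between −279.3 and +534.9 kb. As many as 30 were more than 100 kb from the TSS, and 24 of these were downstream. The stretch of chromosome nearest to Sox2 measured 836.5 kb, which gives 44.2 regions per Mb. The median number of regions per gene was 2 over 17598 protein-coding genes with any region, and 20 genes (0.114%) had more than Sox2. Such a count grows with the stretch of chromosome nearest to a gene, which is long for a gene in a desert. No density was calculated for other genes, so the value per Mb has no background beside it. The median width was 511 bp (208 to 1876 bp), beside 577 bp for all regions. Where neighbouring centres were more than 60 kb apart, the regions fell into 5 blocks. In order, 4 regions lay from −279.3 to −204.4 kb, 3 from −139.0 to −79.8 kb, 6 from −18.3 to +42.3 kb, 12 from +124.1 to +256.3 kb and 12 from +361.7 to +534.9 kb.

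**Figure D1:**
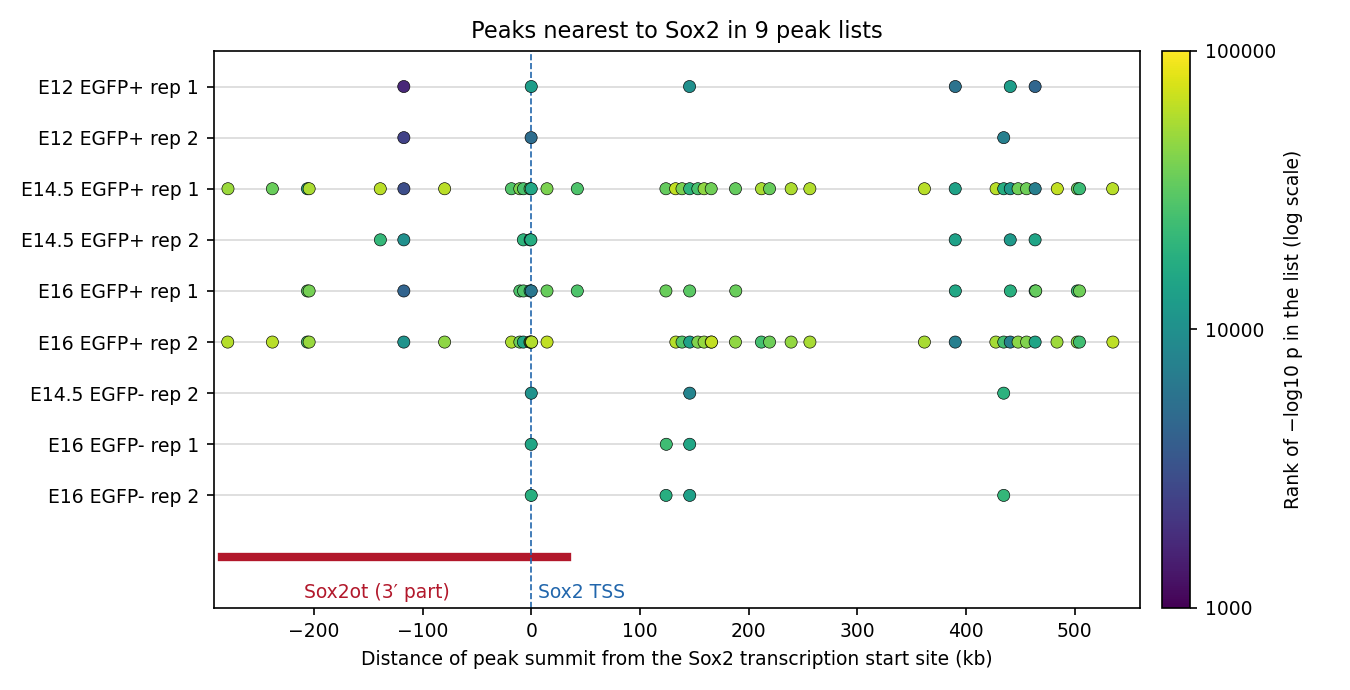
Peaks nearest to Sox2 in each of the 9 lists (rows), placed by the distance of the summit from the Sox2 TSS in kb and coloured by the rank of the −log10 p in the list on a log scale, with darker points for higher-ranked peaks. The 2 longest lists, E14.5 replicate 1 and E16 replicate 2 of Sox2-EGFP+ cells, hold 38 peaks each, and the 3 Sox2-EGFP− lists hold 3, 3 and 4.

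The lists differed greatly in length, and the number of Sox2 peaks differed with it. The E12 Sox2-EGFP+ replicates 1 and 2 had 13817 and 7577 peaks in all, of which 6 and 3 belonged to Sox2. At E14.5 the Sox2-EGFP+ lists had 66332 and 22962 peaks, with 38 and 8 for Sox2. At E16 they had 39314 and 65870 peaks, with 18 and 38 for Sox2. In Sox2-EGFP− cells the E14.5 list had 23302 peaks and the E16 lists 23848 and 23899, with 3, 3 and 4 for Sox2. The Sox2-EGFP+ list of E14.5 replicate 2 and the Sox2-EGFP− lists were of similar length, so these 4 can be set side by side most directly, with 8 against 3, 3 and 4 peaks. The lists carry no reads, so a missing peak was not taken as closed chromatin. The authors had kept only peaks that overlapped a peak in another sample of the same cell type, so that a region open in a single sample could not appear.

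To describe a region, its best rank by −log10 p in each list is given, rank 1 being the peak with the smallest p. The promoter region, chr3:34547449-34549324, was the only member with a peak in all 9 lists. In Sox2-EGFP+ cells it ranked 12769 and 5132 at E12, 15439 and 3872 at E14.5, and 6210 and 12897 at E16. In Sox2-EGFP− cells it ranked 10263 at E14.5, and 14986 and 18148 at E16. The ranks of the cell types overlapped, and the promoter was called as accessible in cells sorted for lack of EGFP. On the rank score, the −log10 of the rank with everything beyond rank 7577 (the length of the shortest list) set equal, the difference of means was 0.0912 (n = 6 and 3, exact permutation test over samples, two-sided p = 0.393). Leaving out each sample gave 0.0512 to 0.109, with the lowest value without E14.5 Sox2-EGFP+ replicate 2.

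Within the promoter region the lists did not all cover the same bases. Summits just upstream of the TSS were called in every list, at −88 and −224 bp at E12 and at −90, −168 and −112 bp in Sox2-EGFP− cells. In the later Sox2-EGFP+ lists they lay at −91, −429, −91 and −91 bp. A separate peak farther upstream was called in all 4 later Sox2-EGFP+ lists, with summits at −1185 and −1115 bp at E14.5 and at −1154 and −1292 bp at E16. Neither E12 list and none of the 3 Sox2-EGFP− lists had a peak there. Its fold enrichment over local background was 4.51 and 5.29 at E14.5 and 4.17 and 3.67 at E16. It ranked 32284 and 3872 at E14.5 and 19542 and 40972 at E16. In E14.5 replicate 2 it was the best-ranked Sox2 peak and outranked the one nearer the TSS, at 17360. The other 3 ranks lay beyond the length of both E12 lists, and 2 of them beyond that of every Sox2-EGFP− list, so absence from those lists is not comparable for them. The longest E16 list added summits at −742 and +257 bp, the latter in the transcribed stretch before the coding sequence, which starts 411 bp after the TSS. No list had a peak over the Sox2 coding sequence, for 0 in all 9. The reporter allele carries EGFP, which is not part of mm9, in this coding region, and its part in the missing peaks was not tested.

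**Figure D2:**
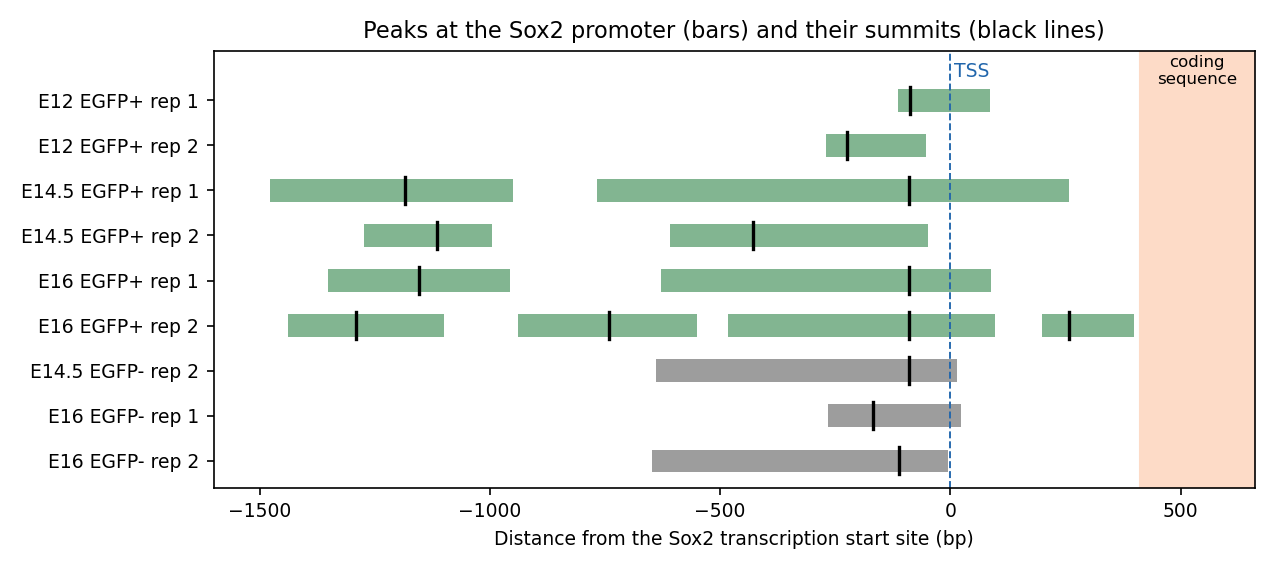
Extent of each peak (bars, green for Sox2-EGFP+ and grey for Sox2-EGFP−) and its summit (black line) at the Sox2 promoter in the 9 lists, by distance from the TSS in bp. The bars with summits between −1292 and −1115 bp are present in the 4 later Sox2-EGFP+ lists and in no other.

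The distal region with the best mean rank score over the Sox2-EGFP+ lists was at −117.4 kb, chr3:34431206-34431901, in an intron of Sox2ot. It ranked 1682 and 2479 in the E12 Sox2-EGFP+ lists, 2994 and 9968 at E14.5, and 4338 and 10614 at E16. It had no peak in any of the 3 Sox2-EGFP− lists, and it ranked above the promoter in 5 of the 6 Sox2-EGFP+ lists. At E12 its rank was the best of all Sox2 peaks in both replicates, whereas in E16 replicate 2 the regions at +389.9 kb (7206) and +440.8 kb (7354) ranked above it. The fold enrichment was 8.25 and 6.45 at E12, 16.7 and 4.89 at E14.5, and 13.3 and 9.32 at E16, with −log10 p of 14.1, 9.81, 83.0, 10.5, 45.8 and 23.0 in the same order. These values were made within each sample and grow with its signal over background, so they are not compared between samples. The 6 summits fell within 83 bp of each other, although the peaks varied from 267 to 689 bp in width.

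A further 3 regions followed the pattern of peaks in 5 Sox2-EGFP+ lists and in no Sox2-EGFP− list, all of them in intergenic sequence far downstream. The region at +389.9 kb, chr3:34938281-34939287, ranked 5736 in E12 replicate 1, 14206 and 13621 at E14.5, and 15640 and 7206 at E16. The region at +440.8 kb, chr3:34989355-34990135, ranked 12809 in E12 replicate 1, 11562 and 11790 at E14.5, and 18272 and 7354 at E16. The region at +463.8 kb, chr3:35012285-35013242, ranked 4476 in E12 replicate 1, 7164 and 14852 at E14.5, and 12812 and 14684 at E16. In each of these regions the list without a peak was E12 replicate 2, the shortest of all. Together with −117.4 kb, they made 4 of the 36 members more than 1 kb from a TSS (11.1%), beside 3.16% of all regions at such a distance. A peak in all 6 Sox2-EGFP+ lists and in no Sox2-EGFP− list, as at −117.4 kb, was found for 0.91% of regions at such a distance. Summits at +389.9 and +440.8 kb were within 104 and 124 bp, whereas those at +463.8 kb spanned 616 bp because E16 replicate 1 had a second, weaker peak there, at rank 33686.

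**Figure D3:**
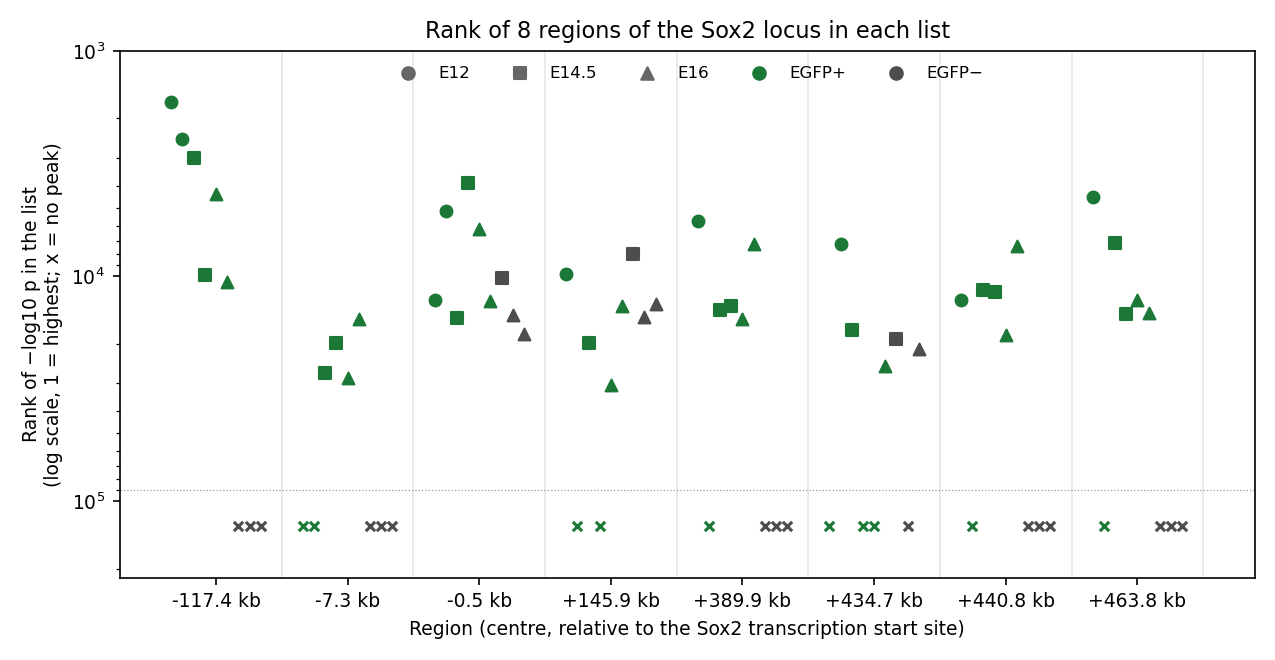
Rank of the best peak by −log10 p (log scale, 1 at the top) of 8 regions in each list, with the shape for the stage, green for Sox2-EGFP+, grey for Sox2-EGFP−, and crosses for lists without a peak. At −117.4, +389.9, +440.8 and +463.8 kb all 3 Sox2-EGFP− lists lack a peak, and at +145.9 kb the Sox2-EGFP− ranks of 7986 to 15272 overlap those of Sox2-EGFP+ cells.

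Only 4 of the 37 regions had a peak in Sox2-EGFP− cells, and 3 of these were distal. The region at +145.9 kb, chr3:34694328-34695262, ranked 7986 in the E14.5 Sox2-EGFP− list and 15272 and 13336 at E16. In Sox2-EGFP+ cells it ranked 9864 in E12 replicate 1, 19857 in E14.5 replicate 1, and 30691 and 13578 at E16, and it had no peak in the other two lists. It was the best-ranked Sox2 peak of the E14.5 Sox2-EGFP− list and of E16 Sox2-EGFP− replicate 2, ahead of the promoter in both. The region at +124.1 kb ranked 23832 and 17901 in E16 Sox2-EGFP− cells, and 33383 and 35120 in replicates 1 of E14.5 and E16 Sox2-EGFP+ cells. The region at +434.7 kb ranked 7251 in E12 replicate 2, 17376 and 25123 in the 2 longest Sox2-EGFP+ lists, and 19014 and 21050 in the Sox2-EGFP− lists of E14.5 and of E16 replicate 2. No member was found in Sox2-EGFP− lists alone, beside 6.91% of all regions more than 1 kb from a TSS. With 36 members at such a distance and so low a share, nothing about the locus is concluded from this. The authors' filter also left fewer samples in which such a region could recur, with 3 Sox2-EGFP− samples against 6 Sox2-EGFP+ samples.

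The remaining 33 regions had no Sox2-EGFP− peak. They were 33 of the 36 members more than 1 kb from a TSS (91.7%), against 78.7% of all such regions and 65.5% of regions at any distance. These shares contain many weak regions: 19 members (52.8% of the 36) were called in E14.5 replicate 1 and E16 replicate 2 of Sox2-EGFP+ cells and nowhere else, beside 43.7% of all regions at such a distance and 35.4% of all regions. The ranks of these 19 ran from 26338 to 64998 in the first list and from 25400 to 64264 in the second, which is beyond the end of the Sox2-EGFP− lists. Absence from the shorter lists is therefore not comparable for them. The block from +124.1 to +256.3 kb held 9 of the 19. None of its 12 regions met the pattern of at least 5 Sox2-EGFP+ lists and no Sox2-EGFP− list. That pattern was found for 3.16% of all regions more than 1 kb from a TSS, so with 12 regions nothing is concluded from its absence.

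A single member, at −7.3 kb (chr3:34541303-34541855), had a peak in all 4 later Sox2-EGFP+ lists and in no list of E12 or of Sox2-EGFP− cells. It ranked 26914 and 19811 at E14.5 and 28523 and 15605 at E16. Such a pattern was found in 5.38% of all regions more than 1 kb from a TSS. Only 2 of these ranks were within 22962, the length of the shortest later list, and its rank lay beyond the whole length of both E12 lists. The nearby region at −10.6 kb ranked 41076 in E14.5 replicate 1 and 27470 and 36122 at E16. Closer to the gene on the downstream side, the region at +14.3 kb ranked 40452 in E14.5 replicate 1 and 34544 and 63858 at E16, and that at +42.3 kb ranked 27812 and 27861 in replicates 1 of E14.5 and E16. In E14.5 replicate 1, these 4 regions were all lower in rank than those at −117.4, +389.9, +440.8 and +463.8 kb.

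Sox2ot occupies chr3:34003360-34581541, 578.2 kb, and ends 32.6 kb past the Sox2 TSS. Of the 37 regions 12 lay in its interval, all in introns, namely the 10 upstream regions, the promoter region and that at +14.3 kb. The other 25 were intergenic. The first 261.2 kb of the interval were nearer to Dnajc19 and held 4 further regions, at −530, −504.1, −451.8 and −415.6 kb. None of the 4 had a peak at E12 or in Sox2-EGFP− cells, and their best rank was 38382, for the region at −451.8 kb in E14.5 replicate 1. Among the 16 regions of the whole interval, the promoter was the only one with a Sox2-EGFP− peak. Of all regions more than 1 kb from a TSS, 78.7% had no such peak. Only those at −206.1, −139.0, −117.4 and −7.3 kb had a Sox2-EGFP+ rank within 23899, the length of the longest Sox2-EGFP− list. For the others besides the promoter, absence from the Sox2-EGFP− lists is not comparable. Of the other upstream members, that at −206.1 kb ranked 16238 in E14.5 replicate 1 and 30632 and 25330 at E16. The region at −139.0 kb ranked 61982 and 21487 at E14.5, which was near the end of both lists.

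To ask whether the locus was more accessible in Sox2-EGFP+ than in Sox2-EGFP− cells with the list length held equal, Sox2 peaks were counted among the 7577 highest-ranked peaks of every list. There were 3 and 3 at E12, 2 and 1 at E14.5 and 2 and 2 at E16 in Sox2-EGFP+ cells, and 0 in each of the 3 Sox2-EGFP− lists. The groups did not overlap, which was the case in this direction for 1.12% of 11805 genes. The mean was 2.17 ± 0.753 (SD, n = 6) against 0 (n = 3), a difference of 2.17 peaks with p = 0.0119 in a two-sided exact permutation test over samples, the smallest value that 84 splits allow. After Benjamini-Hochberg adjustment over all these genes the permutation p was 0.717, so the difference did not pass the threshold of 0.05. In sequencing batch 2 alone the difference was 2.2 (n = 5 and 2, exact permutation p = 0.0476), and batch 1 held 1 sample of each type, with 2 and 0 peaks. Some Sox2-EGFP− cells, those of E16 among them, were collected in parallel with Sox2-EGFP+ cells, although the labels do not say which samples share ducts. With a replicate block over the 3 pairs of the same stage and number the difference was 1.67 and no longer passed (exact sign-flip p = 0.25, the smallest that 3 pairs allow). The difference changed with the length of the list considered and was 1 among the highest 5000 peaks (exact permutation p = 0.119), 0.167 among the highest 2000 (exact permutation p = 1) and 1.5 when peaks were ranked by fold enrichment (exact permutation p = 0.155).

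As a share of the whole list, Sox2 peaks made up 4.34 and 3.96 of every 10000 peaks at E12, 5.73 and 3.48 at E14.5 and 4.58 and 5.77 at E16 in Sox2-EGFP+ cells. In Sox2-EGFP− cells the share was 1.29 at E14.5 and 1.26 and 1.67 at E16. Again the groups did not overlap, as for 5.55% of 17598 genes. The means were 4.64 ± 0.933 (SD, n = 6) and 1.41 ± 0.232 (SD, n = 3) per 10000, and the difference of 3.24 had an exact permutation p of 0.0119 (0.218 after adjustment over these genes). It was 2.68 without the 2 longest lists (n = 4 and 3, exact permutation p = 0.0286), an alternative added after the data were seen.

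**Figure D4:**
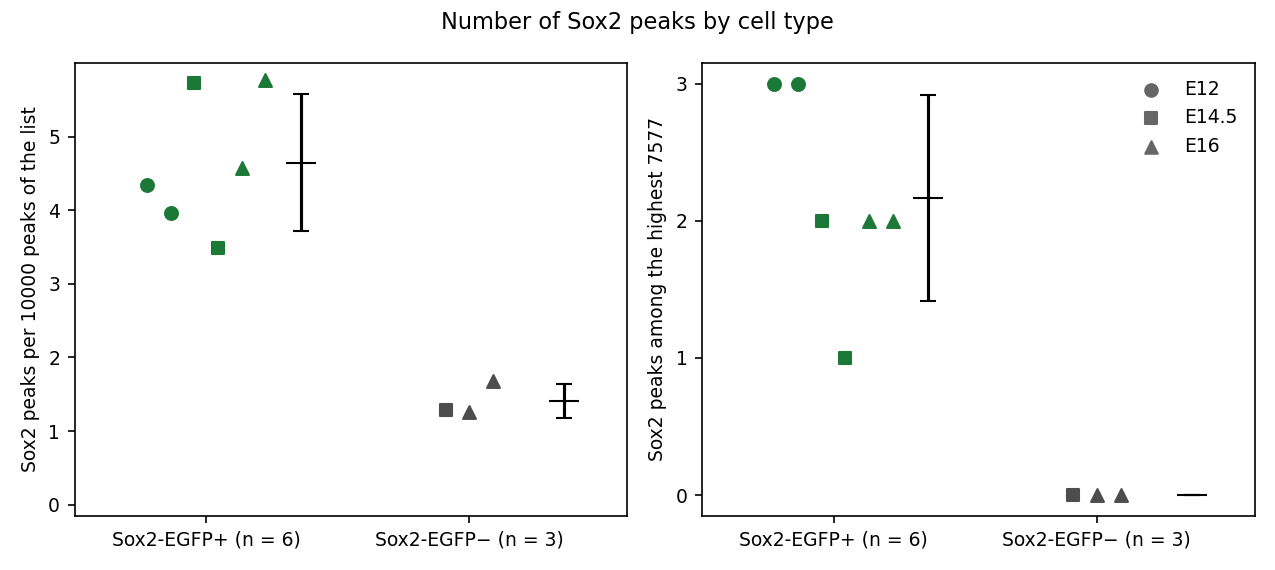
Sox2 peaks per 10000 peaks of the list (left) and among the 7577 highest-ranked peaks (right) for each sample, with the shape for the stage and the mean ± SD of each cell type beside the points. On the left the Sox2-EGFP+ samples range from 3.48 to 5.77 and the Sox2-EGFP− samples from 1.26 to 1.67, and on the right all 3 Sox2-EGFP− samples are at 0.

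The E12 lists have no Sox2-EGFP− counterpart, so the E14.5 and E16 lists were also compared among themselves. Within the same rank limit of 7577 the difference was 1.75 (n = 4 and 3, exact permutation p = 0.0571) and did not pass 0.05. The comparison was repeated down to rank 22962, an analysis added after the data were seen. In Sox2-EGFP+ cells 9 and 8 Sox2 peaks at E14.5 and 7 and 7 at E16 were within this rank, and in Sox2-EGFP− cells 3 at E14.5 and 2 and 4 at E16. The means were 7.75 ± 0.957 (SD, n = 4) and 3 ± 1 (SD, n = 3), without overlap, as for 6.47% of 16082 genes. The exact permutation p was 0.0286, the smallest that 35 splits allow, and 0.284 after adjustment over genes.

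By region and over all 9 lists, 6 members had a rank within 7577 and none separated the cell types, beside 1.57% of 15448 regions higher in every Sox2-EGFP+ list and 2.23% higher in every Sox2-EGFP− list. The count of members at an unadjusted exact permutation p under 0.05 was also 0, beside 5.85% of these regions. With ranking by fold enrichment 1 region was separated, with a score difference at −117.4 kb of 0.669 (n = 6 and 3, exact permutation p = 0.0476). No share of all regions was calculated under this ranking, so the count of 1 cannot be set against a background and nothing is concluded from it. In the later lists 13 members ranked within 22962 and 4 separated the cell types, all higher in Sox2-EGFP+ cells, where 8.51% of 38544 regions (10.3% of those more than 1 kb from a TSS) did so. None was higher in every Sox2-EGFP− list, as 10.6% of the 38544 regions were. The score difference was 0.577 at −117.4 kb, 0.276 at +389.9 kb and 0.286 at +463.8 kb (n = 4 and 3, exact permutation p = 0.0286 each), and 0.295 at +440.8 kb (exact permutation p = 0.0571). These 4 regions had no Sox2-EGFP− peak and met the rank limit through Sox2-EGFP+ lists alone. Their separation therefore restates the pattern for which they are shown and gives it no further support. None passed adjustment over all regions tested, with an adjusted exact permutation p of 0.232 for the first 3 and 0.312 for +440.8 kb. At +145.9 kb the score was lower in Sox2-EGFP+ cells by a difference of −0.218 (exact permutation p = 0.0857).

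Marker genes of the cells that a duct sample can hold were counted in the same way, as peaks nearest to the genes of each list among the highest 7577. Epithelial genes (Epcam, Cdh1, Grhl2, Esrp1) had 3 to 7 such peaks in Sox2-EGFP+ lists and 0 in every Sox2-EGFP− list. Mesenchymal genes (Pou3f4, Tbx18, Twist1, Prrx1) had 0 in every Sox2-EGFP+ list and 4 or 5 in Sox2-EGFP− lists. Prosensory genes (Isl1, Jag1, Fgf20, Eya1) had 4 and 9 at E12, 3 and 5 at E14.5 and 1 and 1 at E16 in Sox2-EGFP+ lists, and 3 in each Sox2-EGFP− list, so that at E16 the Sox2-EGFP− lists had more. Over the full E16 lists, of unequal length, these genes had 29 and 51 peaks in Sox2-EGFP+ and 9 and 9 in Sox2-EGFP− cells, the other way round. Endothelial genes (Pecam1, Cdh5, Tek, Erg) had 0 or 1 in lists of both types, and macrophage genes (Spi1, Csf1r, Ptprc, Cx3cr1) had 0 among the highest 7577 of all 9 lists. Sox10, expressed in glia, which also express Sox2, and in otic epithelium, had 1 and 1 such peaks at E12, 1 and 3 at E14.5 and 0 and 0 at E16 in Sox2-EGFP+ lists, and 0 in every Sox2-EGFP− list. Over the full lists of unequal length, epithelial genes had 5 to 35 peaks in Sox2-EGFP+ and 7 to 9 in Sox2-EGFP− lists, and mesenchymal genes 0 to 13 and 17 or 18. On this count prosensory genes had 7 to 52 and 9 to 11, endothelial genes 0 to 27 and 7 to 11, and macrophage genes 0 to 5 and 0. The contrast at Sox2 thus ran between lists that also differed in epithelial and mesenchymal markers and, at E12 and E14.5, in Sox10, and the part of these in the result was not tested.

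Across stages, the Sox2-EGFP+ lists were compared as E12 against later. As many as 7 members had an E12 peak, namely those at −117.4, −0.5, +145.9, +389.9, +434.7, +440.8 and +463.8 kb, and each also had a peak in later Sox2-EGFP+ lists. Without the promoter they were 6 of 36 (16.7%), beside 9.64% of all regions more than 1 kb from a TSS and 20.1% of all regions. No member was found at E12 and in no later Sox2-EGFP+ list. Both E12 replicates had the promoter and −117.4 kb, replicate 1 alone had 4 of the others, and replicate 2 alone had +434.7 kb. For regions called in a single E12 replicate a later peak was fixed in advance. The authors had kept only peaks that overlapped one in another Sox2-EGFP+ sample. The outcome was open only at the promoter and −117.4 kb, so nothing about stage is concluded from it. Among the highest 7577 peaks E12 had 3 Sox2 peaks in both replicates and the later lists 1.75 ± 0.5 (SD, n = 4), a difference of 1.25 with an exact permutation p of 0.0667, the smallest that 15 splits allow, so this design could not reach 0.05. It was 0.25 with a −log10 q of at least 5 (exact permutation p = 1). As a share of the list the direction turned, with 4.15 per 10000 at E12 and 4.89 later, a difference of −0.739 (n = 2 and 4, exact permutation p = 0.467).

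The sequences of the 37 windows were searched for letters bound by factor families of the inner ear, as a description. CATTGT was present in 10 of 37 windows (27.0%), all of them more than 1 kb from the TSS, beside 17.3% of all regions and 20.5% of those more than 1 kb from a TSS. Besides −117.4 kb these were the windows at −279.3, −79.8, −7.3, +124.1, +132.9, +158.9, +211.6, +256.3 and +447.7 kb, most of them of low rank. The longer CCATTGTT, which contains the shorter letters, was in 0 windows, in 2.11% of all regions and in 2.55% of those more than 1 kb from a TSS. For the other letters the share of all regions is followed by that of regions more than 1 kb from a TSS, as 36 of the 37 members were. AACNNGTT was in 3 windows (8.11%, beside 4.37% and 4.86%), AGATAA in 6 (16.2%, beside 12.9% and 15.5%) and GGAATG in 6 (16.2%, beside 18.2% and 20.4%). TGGGAA (Rbpj) was in 8 (21.6%, beside 27.5% and 29.4%), with 3 copies each at +440.8 and +447.7 kb, and the E-box CAGCTG was in 6 (16.2%, beside 22.4% and 23.5%). CTTTGAT (Lef/Tcf) was in 2 (5.41%, beside 4.47% and 5.25%), ATGCAAAT (Pou), at +132.9 kb, in 1 (2.70%, beside 1.76% and 1.94%), and the Ctcf consensus in 0 (beside 7.86% and 8.87%). The median GC content was 50.7% for the members and 52.3% for all regions, and more than 1 kb from a TSS it was 50.5% for the members and 50.3% for all regions. The windows at −7.3 kb and at the promoter had the highest values among the members, 67.0% and 69.0%.

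Neighbouring genes had fewer regions, not scaled by length, with 6 for Dnajc19, a mitochondrial import factor, and 19 for Atp11b, a phospholipid flippase. Their peaks in the 3 Sox2-EGFP− lists numbered 1 each for Dnajc19 and 4, 3 and 3 for Atp11b, so that Atp11b had as many there as Sox2. In Sox2-EGFP+ cells Atp11b had 4 and 4 peaks at E12, 17 and 10 at E14.5 and 13 and 17 at E16. Among 26 genes with at least 5 peaks within the highest 7577 of some list, the counts most like those of Sox2 across the 9 samples were those of Slc39a11 (Pearson r = 0.915), Nck2 (0.874), Camta1 (0.851), Trpm3 (0.749) and 2010111I01Rik (0.742). Slc39a11, a zinc transporter gene, had 7 and 4 such peaks at E12, 3 and 1 at E14.5 and 2 and 3 at E16 in Sox2-EGFP+ cells and 0 in all Sox2-EGFP− lists. These coefficients describe counts that share the same 9 libraries, and the Sox2 counts take only 4 values, 0 to 3. All 5 genes reached the limit of 5 peaks in E12 Sox2-EGFP+ lists alone, a limit that Sox2 itself did not reach. The limit thus picked genes with high counts at E12, where Sox2 was also highest, and the likeness is partly built in.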

How the data were processed

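Peak lists of 9 ATAC-seq samples were analysed. As the methods of the study state, the authors used Trim Galore for trimming, Bowtie2 for alignment to mm9, Picard and SAMtools for the removal of duplicate and mitochondrial reads, and MACS2 for peak calling in each sample. Peaks were retained if they overlapped those of a different sample within the cell type. In the submitters' processing notes the same tools are named, and their versions are not given in the sources used here. In the deposited lists the fold enrichment is a ratio over the local background of that sample, and the −log10 p and −log10 q values come from MACS2. The deposited score was 10 times the −log10 q, as a whole number, for 286915 of 286921 peaks and was not used further. The lists carry no reads, and depth enters through their length and through the −log10 p by which peaks were ranked.

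Start sites were taken from GENCODE vM1 (protein-coding transcripts) and sequences from the mm9 reference, and chromosome lengths were compared with the lists. Peaks within 100 bp were merged. Lists were compared by ranks of −log10 p down to rank 7577, with two-sided exact permutation tests over samples and Benjamini-Hochberg adjustment over all genes or regions with a value, in Python 3.11.15 with NumPy 2.4.6, SciPy 1.17.1 and matplotlib 3.10.9. Merging was checked against bedtools 2.31.1, and the tests on simulated data. Replicates of Sox2-EGFP+ cells came from separate litters.

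Named regions were the promoter, up to 12 with the best mean rank score in Sox2-EGFP+ lists, and all that were separated by cell type, found in all 9 lists, in Sox2-EGFP− lists alone, at E12 alone or in the 4 later Sox2-EGFP+ lists alone. Others are named as examples, chosen after their values were seen. Results for 1 of the marker lists, Sox10 apart, and 1 of the motifs are not reported here. Named genes were the flanking genes and, among the 26 with at least 5 peaks within the rank limit in some list, the 5 with the highest correlation with Sox2. The members, lists and motifs were chosen with earlier results of these data known. Alternatives were other rank limits, a −log10 q of at least 5, ranking by fold enrichment, the interval between flanking genes, peak centres, a merging distance of 0, E14.5 and E16 alone, batch 2 alone, pairing by replicate number and leaving out each sample.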

Additional observations from a re-analysis of the deposited data

Results flagged for a closer look

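At 4 regions 1 of the 6 Sox2-EGFP+ samples lay far from the others in rank score, in which ranks beyond 7577 are set equal. The gap to the nearest sample, as a share of the range of the group, was 0.893 at +463.8 kb, where E12 replicate 1 ranked 4476 and E14.5 replicate 1 followed at 7164. It was 0.820 at +389.9 kb, where E12 replicate 1 ranked 5736 and E16 replicate 2 followed at 7206. At +434.7 kb and +440.8 kb it was 1, because only E12 replicate 2 (rank 7251) and only E16 replicate 2 (rank 7354) had a rank within the limit. Chance flags about 1 in 20 groups, and scores with many equal values are flagged more readily.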

How the results depend on the processing

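The difference of 2.17 Sox2 peaks between cell types kept its direction under each alternative run and was 3.5 (exact permutation p = 0.0119) with all peaks between the flanking start sites, where E12 minus later was 2. It no longer passed an unadjusted exact permutation p of 0.05 at a rank limit of 5000 (1, p = 0.119) or 2000 (0.167, p = 1), with ranking by fold enrichment (1.5, p = 0.155), in E14.5 and E16 alone at rank 7577 (1.75, p = 0.0571), and without the 2 longest lists (2.25, p = 0.0571, added after seeing the data). With a replicate block over the 3 pairs of the same stage and number it was 1.67, with an exact sign-flip p of 0.25, the smallest that 3 pairs allow; deviations of same-numbered E16 samples correlated at 0.218, over 2 pairs alone. Leaving out each sample gave 2 to 2.4 (exact permutation p 0.0179 to 0.0357), and 1 to 1.33 for E12 minus later. The latter, 1.25, fell to 0.75 and 0.5 at rank limits of 5000 and 2000 and to 0.25 with a −log10 q of at least 5, and turned to −0.739 as a share of the list. The 37 regions became 61 between the flanking start sites, 20 without the 2 longest lists, and 37 to 39 with a sample left out. The number separated by cell type was 1 by fold enrichment, a ranking for which no share of all regions was calculated. It was 4 in the later lists to rank 22962, beside 8.51% of 38544 regions, and 0 to 0 with a sample left out. Of 91 further values for single regions, 19 had no direction to compare, since the value or its alternative was exactly 0. Of the other 72, 67 kept direction and side of the threshold, and +434.7 kb turned to −0.00964 in the later lists. The threshold was passed by 4, all at regions without a Sox2-EGFP− peak, where this restates that pattern. The causes were not tested. List length limits what a missing peak shows, most of all at E12.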
